A study of Mus musculus with 6 samples.

Results

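The sites described here were summits of p53 binding that were called in cells with the p53 form named 3KR and not in cells with wild-type p53 (WT), and that lay between genes but not far from one. Members were selected on presence in the 3KR list and absence from the WT list. They were the 3KR summits on chromosomes 1 to 19, X and Y with no WT summit within 200 bp, outside every protein-coding gene, and more than 1 kb and at most 50 kb from the nearest end of such a gene. This rule found 1307 of 6753 summits in the 3KR list, or 19.6% of the 6685 summits on those chromosomes. They were 22.4% of the 5829 summits called in 3KR only. Because the lists themselves chose the members, their number and their absence from WT are descriptions with no test.

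The measurement was ChIP-seq, in which DNA bound by p53 is recovered with an antibody and sequenced. Cells were basal progenitor cells of the epidermis, sorted by flow cytometry as high for alpha-6 integrin and positive for EpCAM, from mice 8 weeks old. There were 3 libraries of genotype p53WT and 3 of genotype p533KR, 6 in all, and both genotypes had Nutlin-3a at 25 µM in the digestion medium. Nutlin-3a keeps MDM2 from degrading p53. The labels do not describe the 3KR allele further. From general knowledge it is a p53 with 3 lysines of the DNA-binding domain changed to arginine, a residue that acetyltransferases do not modify.

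The data were 1 combined list of summits per genotype, with 1668 summits for WT and 6753 for 3KR. Each summit carried a score, the −log10 of a p-value or q-value from the authors' peak caller, which was used only to rank summits within a list. No value existed per library, so there was no spread between animals, and the depth behind each list was unknown. The difference in list length and in depth cannot be told apart. Every summit name of the 3KR list contained the word Doxo and every name of the WT list ended its run label in the number 1, which differs from what the sample and design texts say of pooling and compound. Genotype and a treatment named by that word cannot be told apart here, and this applies to each result. Sites are not replicates of a genotype, neighbouring sites are not independent, and every interval covers counting error only.

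p53 is a transcription factor that binds DNA as a tetramer, at response elements made of a pair of similar decamers. It is known to act at promoters and also from enhancers, which can lie far from the gene they serve. Enhancers of epidermal keratinocytes are known to be rich in sites for AP-1, p63 and other factors. A summit between genes can also lie at the start of a non-coding RNA gene.

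A small group of members did sit at an annotated start, that of a long non-coding RNA (lncRNA). RefSeq start windows, which run from 250 bases before to 50 after the annotated start, were given for 9533 of 12727 lncRNA genes (74.9%), and 25 of these genes (0.262%) had a member summit in a window. These were 25 of 1307 members, or 1.91% (95% Wilson interval 1.30 to 2.81). The share was 2.12% of the 236 shared 3KR sites of the same location (0.908 to 4.86) and 3.24% of the 247 WT-only sites of that location (1.65 to 6.26), so the intervals overlapped. Of the 25 summits, 24 lay before the start and 1 lay after it, in windows that hold mostly sequence before the start. Among the genes were Snhg8, Snhg15 and Snhg16, which are host genes of small nucleolar RNAs, Mir22hg, the host gene of the microRNA miR-22, and Chaserr, a lncRNA gene beside the chromatin remodeller gene Chd2.

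**Figure D1:**
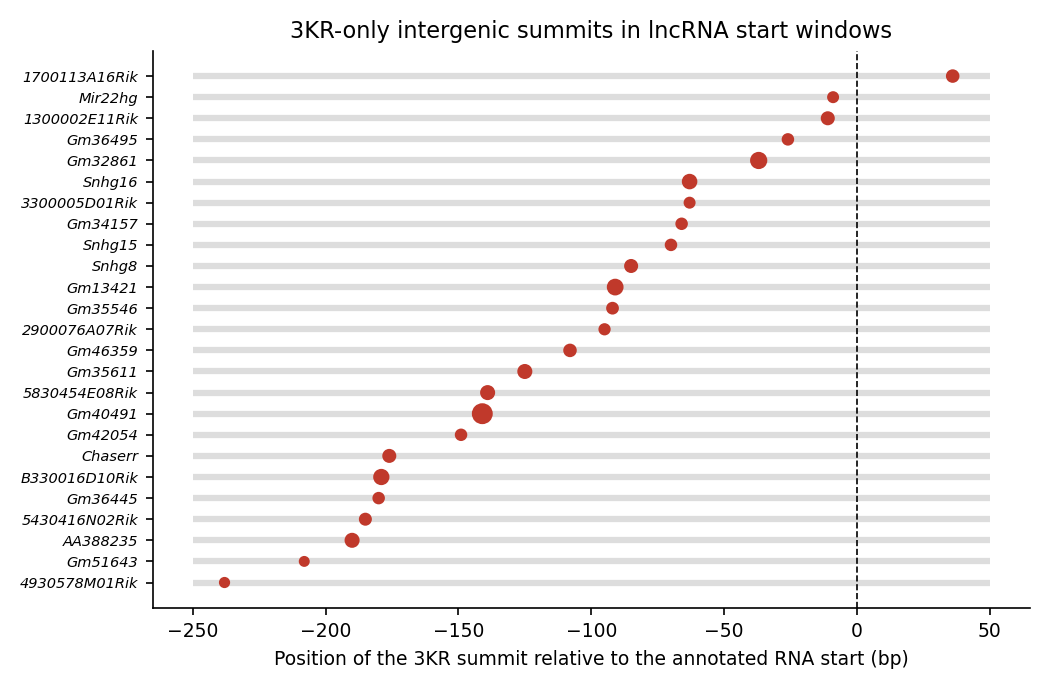
Position in bp of each of the 25 summits relative to the annotated start of the lncRNA (dashed line), 1 row per gene. Grey bars are the windows searched, and larger points have a higher score. The summits lay between 238 bp before the start of 4930578M01Rik and 36 bp after that of 1700113A16Rik.

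The start windows of 6 of these genes show what the sequence under such summits looks like, for the pair with the highest scores and for 4 host genes of small RNAs. Sequences are RefSeq start windows of build GRCm38.p6 (the same main chromosomes as mm10), 5′ to 3′ on the strand of the gene. Capitals mark the summit base and 10 bases to either side. Gm40491 (chr12:86833714-86834013, minus strand) had the highest score, 35.8, with its summit 141 bp before the start. Gm32861 (chr7:110288349-110288648, minus strand) followed with 21.4, at 37 bp before the start. Snhg16 (chr11:116671410-116671709, plus strand) scored 15.8, with its summit 63 bp before the start. Snhg8 (chr3:123508287-123508586, minus strand) scored 11.4, at 85 bp before the start. Snhg15 (chr11:6528711-6529010, minus strand) scored 7.48, at 70 bp before it. Mir22hg (chr11:75461289-75461588, plus strand) scored 6.27, at 9 bp before it.
Gm40491: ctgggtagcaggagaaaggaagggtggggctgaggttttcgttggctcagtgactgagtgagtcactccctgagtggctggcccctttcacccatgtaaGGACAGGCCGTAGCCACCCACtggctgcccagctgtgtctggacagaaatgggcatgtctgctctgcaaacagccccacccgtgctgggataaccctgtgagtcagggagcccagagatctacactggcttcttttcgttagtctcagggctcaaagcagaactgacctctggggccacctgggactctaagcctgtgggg
Gm32861: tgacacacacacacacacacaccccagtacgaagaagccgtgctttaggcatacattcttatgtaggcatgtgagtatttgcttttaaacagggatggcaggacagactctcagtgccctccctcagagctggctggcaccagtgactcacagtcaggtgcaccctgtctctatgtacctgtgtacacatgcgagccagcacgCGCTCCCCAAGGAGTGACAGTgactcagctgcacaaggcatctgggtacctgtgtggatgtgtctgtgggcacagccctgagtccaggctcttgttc
Snhg16: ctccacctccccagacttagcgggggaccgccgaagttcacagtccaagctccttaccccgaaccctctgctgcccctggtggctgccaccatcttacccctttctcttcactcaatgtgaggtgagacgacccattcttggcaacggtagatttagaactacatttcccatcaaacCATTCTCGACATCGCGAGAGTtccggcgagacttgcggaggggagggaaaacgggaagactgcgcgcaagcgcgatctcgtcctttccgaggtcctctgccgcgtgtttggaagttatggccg
Snhg8: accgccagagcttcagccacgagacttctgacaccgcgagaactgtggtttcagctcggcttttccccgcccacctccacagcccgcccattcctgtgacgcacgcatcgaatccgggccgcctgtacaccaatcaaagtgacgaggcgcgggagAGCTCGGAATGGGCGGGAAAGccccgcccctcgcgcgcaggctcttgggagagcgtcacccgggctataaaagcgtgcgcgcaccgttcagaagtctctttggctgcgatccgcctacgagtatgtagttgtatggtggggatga
Snhg15: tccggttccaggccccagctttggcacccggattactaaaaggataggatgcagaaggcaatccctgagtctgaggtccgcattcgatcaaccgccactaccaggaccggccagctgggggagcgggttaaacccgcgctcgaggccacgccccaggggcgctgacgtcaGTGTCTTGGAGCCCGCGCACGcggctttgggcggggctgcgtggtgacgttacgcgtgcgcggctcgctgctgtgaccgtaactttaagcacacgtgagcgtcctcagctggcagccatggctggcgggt
Mir22hg: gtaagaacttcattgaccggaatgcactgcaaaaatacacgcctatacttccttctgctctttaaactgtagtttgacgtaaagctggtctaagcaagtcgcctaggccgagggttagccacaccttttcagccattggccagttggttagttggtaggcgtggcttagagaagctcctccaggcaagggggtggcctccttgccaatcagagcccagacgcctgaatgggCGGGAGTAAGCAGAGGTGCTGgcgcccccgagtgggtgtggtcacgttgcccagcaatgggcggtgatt

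The 2 windows with the highest scores held fewer CpG dinucleotides than those of the host genes. Gm40491 and Gm32861 held 4 and 5 CpG dinucleotides, against 22 in Snhg16, 30 in Snhg8, 29 in Snhg15 and 12 in Mir22hg. Their shares of G and C overlapped, at 58.3 and 54.3% against 54.7 to 64.7% in the host genes. The next windows by score, Gm13421 and B330016D10Rik, held 29 and 43 CpG. The median over all 25 windows was 19 CpG, and 57.3% of bases were G or C. Over the 9533 lncRNA windows the medians were 4 CpG and 48.7%. The AP-1 motif TGANTCA, on either strand, occurred in 5 of the 25 windows (20%) and in 9.49% of all lncRNA windows. Gm40491 and Gm32861 each held 2 copies of it. A GC box (GGGCGG, either strand) was in 11 of 25 windows and in 16.8% of all lncRNA windows, and the letters TGACG, the core of a cyclic AMP response element, in 11 of 25 and in 15.8%. The p53 decamer, a palindromic motif whose strands match together, was in 5 of 25 windows (20%), Gm40491 and Chaserr among them, and in 10.3% of all lncRNA windows. A pair of such decamers with a spacer of at most 13 bases was in 0 of the 25 and in 0.0944% of all lncRNA windows. Over all 27025 start windows, those of protein-coding genes included, the GC box was in 35.9% and TGACG in 21.0%. The AP-1 motif was in 7.93% of them and the p53 decamer in 8.37%, and their median was 7 CpG. These matches are descriptions of letters in the windows, and the sequences under the other members were not used here.

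MicroRNA genes lay within 20 kb of 30 members (2.30%), which had 34 hairpins near them. The share was 3.81% of shared sites (9 of 236), 2.43% of WT-only sites (6 of 247) and 3.50% of all 3KR summits (234 of 6685); these shares were not tested against each other. No member lay within 1 kb of a microRNA gene, and neither did any of the 236 shared or 247 WT-only sites of the same location. Of 3KR-only sites, 1 of 753 far from genes did, 9 of 1030 at gene ends (0.874%) and 9 of 2739 in gene bodies (0.329%). The hairpin nearest to a member was Mir22, which began 2186 bp beyond the summit at the start of its host gene Mir22hg. The highest score was 47.7, for the summit beside Hnrnph1, 11640 bp from Mir804. The next, 32.0 (rank 487 of 6753), belonged to a summit that lay 7435 bp from Mirlet7e and 7895 bp from Mir125a, at 17822917 on chromosome 17, with Spaca6 as the nearest protein-coding gene. Other members lay 16936 bp from Mir16-1 (score 18.5) and 19947 bp from Mirlet7d (score 6.87). Let-7 microRNAs are known to hold back growth genes, and miR-16 targets cyclins. Mature RefSeq sequences of these 5 are shown with the seed (bases 2 to 8) in capitals, because let-7e and let-7d share their seed and the other 3 each have a different one. These 5 were chosen after their values were seen.
mmu-miR-22-3p: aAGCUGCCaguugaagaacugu
mmu-let-7e-5p: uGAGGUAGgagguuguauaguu
mmu-let-7d-5p: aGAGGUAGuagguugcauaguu
mmu-miR-125a-5p: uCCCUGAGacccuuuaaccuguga
mmu-miR-16-5p: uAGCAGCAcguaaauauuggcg

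The scores of the members ranged from 2.57 to 124, with a median of 9.39 and quartiles of 6.87 and 14.3. The median was also 9.39 for 3KR-only sites more than 50 kb from a gene and for 3KR-only sites in gene bodies, and 10.1 for those at gene ends. Shared sites of the same location had a median of 18.9. Presence in both lists goes with the score, so these values are given without a test. Scores repeated often: the 1307 members had 257 distinct values, and 81 members had the same score of 6.87. Ranks within the list therefore carry many ties, and the lowest rank of a tie is given. Of the members, 73 were among the 675 highest ranked 3KR summits and 6 among the 100 highest.

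**Figure D2:**
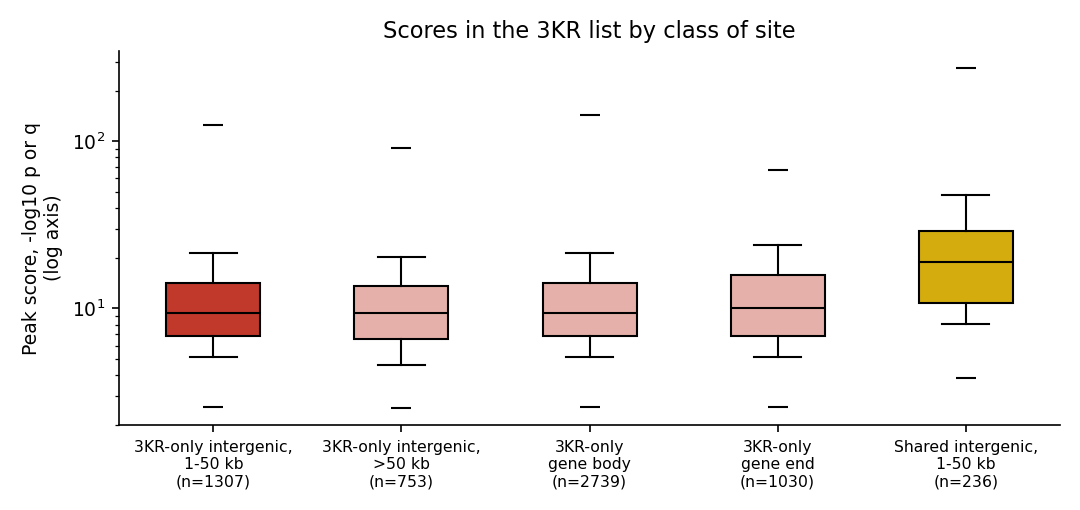
Peak scores in the 3KR list (log axis) for 5 classes of summits. Boxes give quartiles and the median, whiskers the 10th and 90th percentiles, and dashes the lowest and highest score. The 3KR-only classes have medians of 9.39 to 10.1, and the shared sites one of 18.9.

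The sites with the highest scores lay beside genes of several kinds. First came the site 7.31 kb from Serpinh1, which encodes a collagen chaperone (99360550 on chromosome 7, score 124), then those 15.1 kb from Col1a1, a collagen chain gene (score 117), and 3.04 kb from Capn2, a calpain protease gene (score 115). The fourth lay at 195017025 on chromosome 1, 21.9 kb from Cd46, a complement regulator gene, with a score of 89.3. Next was a site 7.68 kb from Ets2, an ETS transcription factor gene (95728732 on chromosome 16, score 81.0), with a WT summit 31.5 kb away. Il17ra, the gene of an interleukin-17 receptor chain, had a site 8.22 kb away with a score of 76.1. Musk, Npepps and Slc41a1 followed with scores of 71.5, 66.7 and 63.7.

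The tenth was the site 6984 bp from Mdm2, whose product marks p53 for degradation, with a score of 60.5. A WT summit lay 7642 bp from it, inside Mdm2. F2rl1, a protease-activated receptor gene, had a site 23.6 kb away with a score of 56.3. The other genes among the first 20 were Morn3, Tpra1, Jun, Snrk, Lif, Hnrnph1, Fgd2, Lrrc74a and Metap1, with scores from 52.2 down to 46.6. Of these 20 sites, 12 lay within 10 kb of the gene and 5 had a WT summit within 50 kb. Over all members, 91 (6.96%) had a WT summit within 10 kb, and the median distance to one was 282282 bp.

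Sites just inside and just outside each threshold of the rule were as follows. The member closest to a WT summit was one of Sik1, 211 bp from it with a score of 12.1, and the shared site farthest from its WT partner was near Ctnnbip1, at 196 bp with a score of 42.6. The member closest to a gene was 1028 bp from Mex3b, and the closest site left out lay 983 bp from Plxdc1. At the far limit the member was 49947 bp from Jak2, and the site left out 50047 bp from Lnx1. These 4 scored 7.48, 3.54, 6.87 and 10.7.

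Members lay at all distances within the band. Their distance to the nearest gene end had a median of 13975 bp, with quartiles of 5906 and 26518 bp. Per megabase of intergenic sequence at the same distance, there were 3.02 ± 0.307 members between 1 and 2 kb from a gene end (97 sites, error from the square root of the count). The density was 2.26 ± 0.166 from 2 to 5 kb, 2.18 ± 0.121 from 10 to 20 kb and 1.78 ± 0.165 from 40 to 50 kb, against 2.11 ± 0.0584 over the whole band. The band closest to genes thus had the highest density among the 7 bands measured. The same band was the densest for the other classes. Shared sites had 0.655 per Mb there against 0.381 over the whole band, and WT-only sites 0.686 against 0.399.

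The position within the band was compared with that of sites of the other classes. Within 10 kb of a gene end lay 513 of 1307 members, or 39.3% (95% Wilson interval 36.6 to 41.9), 91 of 236 shared sites, or 38.6% (32.6 to 44.9), and 89 of 247 WT-only sites, or 36.0% (30.3 to 42.2). The odds ratio was 1.03 against shared sites (95% interval 0.774 to 1.37, 2-sided Fisher's exact test, Benjamini-Hochberg adjusted p = 0.885). Against WT-only sites it was 1.15 (0.865 to 1.52, Fisher's exact adjusted p = 0.818). No difference in distance was detectable at these numbers, and the intervals leave room for odds ratios up to 1.37 and 1.52.

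**Figure D3:**
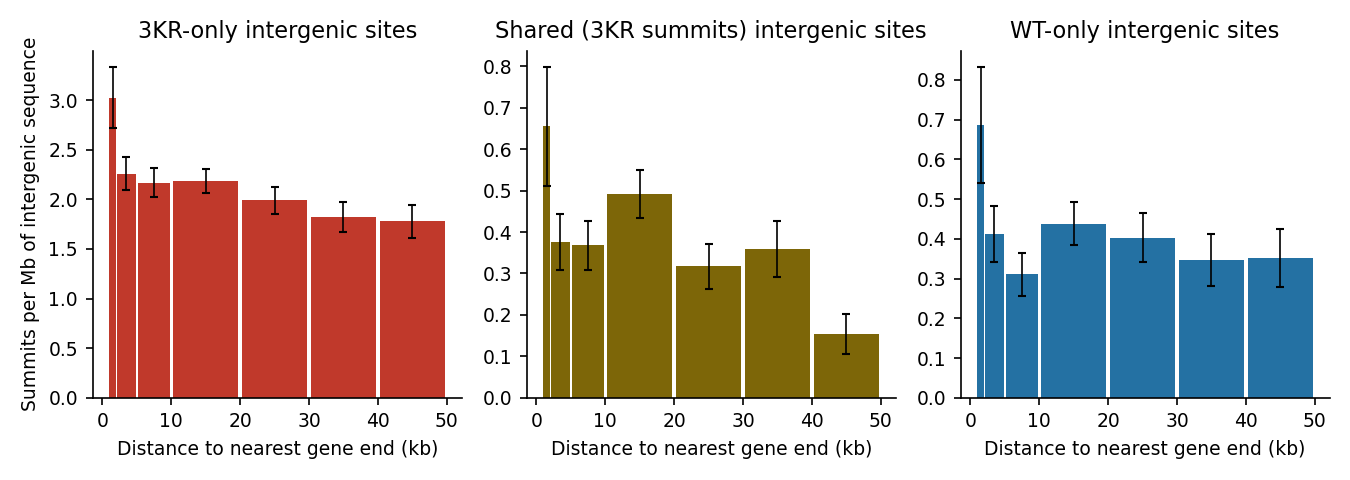
Summits per Mb of intergenic sequence (vertical axes, which differ between panels) by distance to the nearest gene end in kb, for 3KR-only, shared and WT-only intergenic sites. Error bars are the square root of the count, as a density. The density of 3KR-only sites was 3.02 per Mb at 1 to 2 kb and 1.78 per Mb at 40 to 50 kb. In each panel the band from 1 to 2 kb was the densest.

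Most members stood alone at 10 kb. Another 3KR summit lay within 10 kb of 397 members, or 30.4% (27.9 to 32.9), and of 77 shared sites, or 32.6% (27.0 to 38.8). The odds ratio was 0.901 (0.670 to 1.21, 2-sided Fisher's exact test, adjusted p = 0.818). When a WT summit within 1000 bp counted as shared, the odds ratio was 0.678 (Fisher's exact adjusted p = 0.0333), with 29.2% of members and 37.9% of shared sites in company. That setting moved 28 members to the shared class, which rose from 236 to 264 sites. A site so moved can have a shared 3KR summit as its company, and whether this raised company among shared sites was not tested. With genes of every biotype the odds ratio was 0.707 (28.3% against 35.8%, Fisher's exact adjusted p = 0.0636). For company within 5 kb it was 0.702 (20.4% against 26.7%, Fisher's exact adjusted p = 0.155), and within 50 kb it was above 1, at 1.1997. No conclusion is drawn from these values. The closest companion was another member in 272 of the 397 cases, a shared site in 48, a 3KR-only site at a gene end in 40 and one in a gene body in 31.

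In 23 places 3 or more members followed each other with gaps of at most 10 kb, together 77 sites. A run of 5 near Gm40363 spanned 12894 bp of chromosome 6, and further runs of 3 lay beside it, between Gm40363 and Pdia4 and near Gm40365 and its neighbours. Runs of 4 lay near Cd69, Apba2, E2f6, Irf2bp2, Ccl2 and Fth1, which encodes the heavy chain of ferritin. The Fth1 run had scores from 4.58 to 12.1, 25939 to 34597 bp from the gene. The run near Cd69, an activation antigen gene of lymphocytes, spanned 6859 bp with scores from 5.91 to 30.5.

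For non-coding genes no difference from shared sites was detected. A gene that is not protein-coding covered, or ended within 1 kb of, 355 members, or 27.2% (24.8 to 29.6), and 66 shared sites, or 28.0% (22.6 to 34.0). The odds ratio was 0.960 (0.705 to 1.31, 2-sided Fisher's exact test, adjusted p = 0.885). Most of these were lncRNA genes, at 310 members. The comparison of gene sides is void, because strand was known for the gene of only 78.4% of members and 79.7% of shared sites, under the 80% set as the least. Where it was known, 575 of 1025 members (56.1%) and 98 of 188 shared sites (52.1%) lay on the side of the gene's start (odds ratio 1.17, interval 0.859 to 1.60, Fisher's exact adjusted p = 0.818).

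The members had 1049 protein-coding genes as their nearest gene, 4.79% of 21887. Of these, 858 had 1 member and 191 had more. A 3KR summit within 1 kb of an end was also present at 156 of the 1049 genes (14.9%), against 10.6% of all protein-coding genes. Another 170 of the 1049 had one in the gene body but at no end, a count for which no share of all genes was computed. Most genes had no 3KR summit at an end, among those beside a member as among all genes. Gene lists that fit p53, epidermis and the cells a sort could hold were then set beside the 4.79% and the density of 2.11 members per Mb. The lists were chosen with earlier results of these data known, so their counts are descriptions without a test. Counts under alternatives have other shares of all genes beside them. These were 2.60% for summits at or above the median score and 3.79% with a gene end more than 5 kb away. With genes of every biotype no such share was computed, so those counts cannot be set against the 4.79%.

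**Figure D4:**
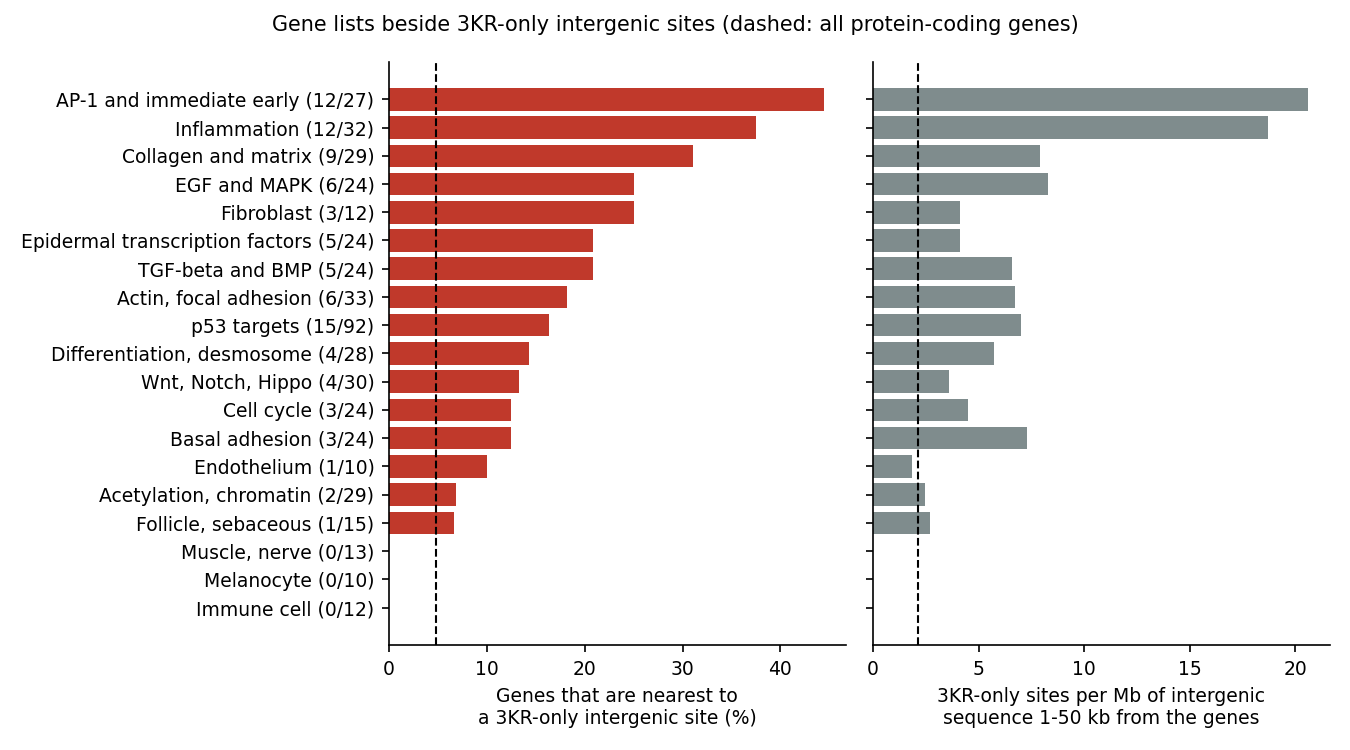
Share of the genes of each list that are nearest to a 3KR-only intergenic site (left, %) and such sites per Mb of the intergenic sequence 1 to 50 kb from those genes (right), with all protein-coding genes as dashed lines at 4.79% and 2.11 per Mb. AP-1 and immediate early genes (12 of 27) and inflammation genes (12 of 32) stand at the top of both panels, and 3 of the 6 lists of other cells are at 0. The lists at 0 hold only 10, 12 and 13 genes.

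AP-1 and immediate early genes, which are switched on within minutes by growth factors and stress, had the highest share, 12 of 27 or 44.4% (95% Wilson interval 27.6 to 62.7). They had 22 members between them, 20.6 per Mb of intergenic sequence. Shared sites were beside 3 of the 27 genes (11.1%) and WT-only sites beside 3 (11.1%). Of all 21887 genes, 209 (0.955%) and 226 (1.03%) had one. Both other classes thus also stood above their share of all genes in this list. The classes were not tested against each other. With genes of every biotype as neighbours, where a non-coding gene can cover a site or lie nearer, the count was 7 of 27.

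Among the subunits of AP-1, Jun had a site 48.8 kb away with a score of 50.03 (95101007 on chromosome 4, inside the lncRNA gene Junos) and a second 24.4 kb away with a score of 8.10. Fosl2, which encodes the subunit FRA2, had sites 2.64 and 3.34 kb away, with scores of 37.6 and 3.94, and one at 34.3 kb on its other side with a score of 23.9. Fosb had a site 12.5 kb away (score 21.2), and Atf3, a stress-induced member of the family, one at 10.5 kb (score 19.7). Fosl2 was thus the only one of these 4 genes with a member closer than 10 kb. A WT summit lay within 12 kb of the Fosl2 sites and 7.99 kb from the weaker Jun site, and none within 100 kb of those of Fosb and Atf3.

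Other immediate early genes had sites of lower score. Ier3, an early response gene with a role in cell survival, had 3, from 8.25 to 44.5 kb away, with scores of 20.6, 12.1 and 10.7. Ier5 had 4, of which 3 lay between 8.44 and 9.79 kb on 1 side, with scores from 5.13 to 10.1. Dusp1, which encodes a phosphatase that switches off MAP kinases, had 3, from 2.64 to 26.7 kb away, with scores from 9.76 to 15.8. Nr4a1, an orphan nuclear receptor gene, had 1 at 7.53 kb with a score of 23.9. Egr1, Zfp36, Dusp6 and Klf2 had 1 each, with scores of 14.3, 11.2, 7.48 and 3.54. Multiple sites per gene are thus seen at 5 of the 12 genes, Jun, Fosl2, Ier3, Ier5 and Dusp1.

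**Figure D5:**
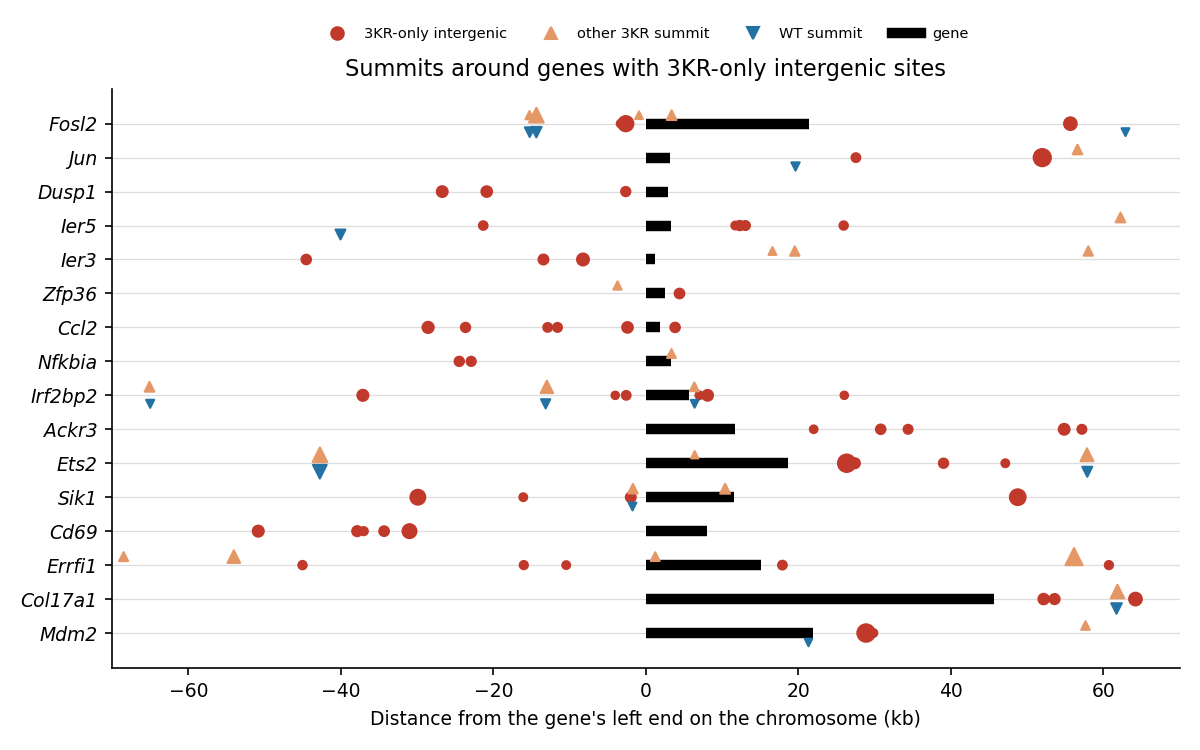
Summits within 70 kb of the left end of 16 genes (black bars), as distance in kb along the chromosome. Red circles are 3KR-only intergenic sites, including some whose nearest gene is another one, orange triangles other 3KR summits and blue triangles WT summits, and larger symbols have a higher score. Blue triangles are in the rows of Fosl2, Jun, Ier5, Irf2bp2, Ets2, Sik1, Col17a1 and Mdm2. The other rows have none, that of Ccl2 with 6 red circles among them.

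Genes of inflammation came next, 12 of 32 or 37.5% (22.9 to 54.7), with 19 members and 18.7 per Mb. Shared sites were beside 2 of the 32 genes (6.25%, against 0.955% of all genes) and WT-only sites beside 1 (3.1%, against 1.03%). With genes of every biotype the count of members' genes was 7 of 32. Ccl2, the gene of a chemokine that draws monocytes, had 6 members with scores from 8.10 to 17.4, between 1.95 and 28.6 kb away, and the nearest WT summit was 3271940 bp off. Tnfaip3 and Nfkbia, which encode inhibitors of NF-kappaB, had 2 members each. Those of Tnfaip3 scored 15.9 and 12.8 at 47.0 and 28.9 kb, and those of Nfkbia 10.1 and 9.58 at 24.5 and 22.9 kb. Tlr2, a receptor gene of innate immunity, had 1 at 21.2 kb (score 17.4). Il1a, Cxcl1, Ccl20, H2-D1, Irf1, Nfkb1 and Socs3 had 1 each, with scores from 4.58 to 12.8.

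Collagen and matrix genes stood at 9 of 29 or 31.0% (17.3 to 49.2), with 10 members and 7.90 per Mb. Shared sites were beside 1 of the 29 (3.45%, against 0.955% of all genes) and WT-only sites beside 2 (6.90%, against 1.03%). Both other classes thus also stood above their share of all genes here. Beyond Serpinh1 and Col1a1 the scores were lower. Col3a1, a fibrillar collagen gene, had a site 6.41 kb away (score 16.6), Fbn1, the fibrillin gene, one at 6.37 kb (score 14.3) and Mmp14, a membrane-bound protease gene, one at 1.47 kb (score 14.3). Col18a1 had 2, and Loxl1, P4ha1 and Adamts1 had 1 each. Genes of other cells that the sort could hold had a member at 5 of 72, or 6.94%. These were 3 of 12 fibroblast genes (25.0%, interval 8.89 to 53.2), Dcn, Dpt and Thy1, 1 of 10 endothelial genes, Flt1, and 1 of 15 genes of the hair follicle and sebaceous gland, Plet1. None of the 10 melanocyte, 12 immune and 13 muscle and nerve genes had one. A site beside a gene does not measure its expression, so these counts say nothing of which cells were present.

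EGF receptor and MAP kinase genes had a member at 6 of 24, or 25.0% (12.0 to 44.9), with 8.26 per Mb. Shared sites were beside 0 of the 24 and WT-only sites beside 1 (4.17%, against 1.03% of all genes). Errfi1, which encodes a feedback inhibitor of the EGF receptor, had 4, with scores from 5.13 to 8.06. Tgfa and Epgn, both ligands of the receptor, had 1 each, at 14.3 kb with a score of 18.1 and at 1.60 kb with a score of 15.8. Fgfr2 had 2, and Met and Spred2 had 1. The receptor gene Egfr itself had none. In the TGF-beta and BMP list, 5 of 24 genes had a member, 2 among summits at or above the median score, 2 with a gene end more than 5 kb away and 3 with genes of every biotype. Shared sites were beside 1 of these 24 (4.17%, against 0.955% of all genes) and WT-only sites beside 3 (12.5%, against 1.03%), so this list was not particular to members. Id3, an inhibitor of differentiation, had 3, the highest at 9.29 kb with a score of 33.8, and Smad7, an inhibitor of the pathway, had 1 at 3.93 kb with a score of 16.6.

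Known p53 target genes had a member at 15 of 92, or 16.3% (10.1 to 25.2), with 19 members and 7.02 per Mb. Among summits at or above the median score of the 3KR list, 8 of 92 had one, where 2.60% of all genes did. With a gene end more than 5 kb away the count was also 8, where 3.79% of all genes had one. Shared sites were beside 2 of the 92 and WT-only sites beside 2 (2.17% each, where 0.955% and 1.03% of all genes had one). Mdm2 had 2 members, 6.98 and 7.94 kb away, of which the second scored 5.50. The WT list had a summit inside Mdm2 itself, 7642 and 8595 bp from these members. Lif, a cytokine gene, had 3, the highest at 27.4 kb with a score of 48.1. Btg2, an antiproliferative gene, had 1 at 13.9 kb (score 30.1), and Perp, a desmosome gene that p53 and p63 both control, had 2 at 18.7 and 19.3 kb, scoring 10.7 and 21.0. Foxo3, Thbs1, Pmaip1, Fas, Susd6, Cx3cl1, Trp53inp1, Slc19a2, Gpx1 and Pml had 1 each, with scores from 4.58 to 14.3. The share of targets was below that of immediate early genes, a difference that was not tested.

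Cell cycle genes had a member at 3 of 24, and at 0 with genes of every biotype as neighbours. Cdkn1b, which encodes the kinase inhibitor p27, had 2 with scores of 32.9 and 29.2, at 21.8 and 3.00 kb, the first inside the lncRNA gene Lockd. Ccne1, the cyclin E1 gene, had 1 at 12985 bp with a score of 25.7, and Cdkn2b had 1 at 42.2 kb with a score of 12.8.

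Of the epidermal genes, basal adhesion genes had one at 3 of 24 (12.5%, interval 4.34 to 31.0), while shared sites were beside 6 of these 24 genes. Col17a1, a hemidesmosome collagen gene, had 3 members with scores of 24.5, 14.3 and 12.8, each with a WT summit between 2.49 and 9.55 kb away. Epidermal transcription factor genes had one at 5 of 24 (20.8%), Cebpb, Ehf, Hes1, Tfap2c and Grhl3, and WT-only sites were beside 6 of the 24. The count was 2 with genes of every biotype and 3 with a gene end more than 5 kb away. Differentiation and desmosome genes had one at 4 of 28 (14.3%), and at 1 with a gene end more than 5 kb away. Of these, Krtdap, a gene of differentiating keratinocytes, had a site 4.10 kb away (score 21.4), and Ppl, the periplakin gene, one at 2.44 kb (score 19.8) with a WT summit 1.79 kb from it. Cdsn and Krt10 had 1 each, with scores of 11.4 and 6.87.

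In the remaining lists, actin and focal adhesion genes had a member at 6 of 33, of which Capn2 has been named and the others scored at most 12.8. The count was 2 among summits at or above the median score and 3 with genes of every biotype. Wnt, Notch and Hippo genes had one at 4 of 30, and under the same alternatives at 2 and at 0. The highest score was that of Ccn1, a Hippo pathway target gene, at 24.9 kb with 23.9. Genes of acetylation and chromatin had one at 2 of 29 (6.90%, interval 1.91 to 22.0), near the share of all genes, and at 1 under each of these alternatives. Hdac9, a histone deacetylase gene, had a site 6.45 kb away with a score of 13.6.

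Over all genes, those with the most members were Gm40363 with 7, Ccl2 of the inflammation list and Irf2bp2 with 6 and Ackr3 with 5. Irf2bp2, which encodes a transcriptional corepressor, had members 625 bp to 24.0 kb from a WT summit, with scores from 4.05 to 16.6. Ackr3, an atypical chemokine receptor gene, had scores from 4.58 to 15.8 between 10.3 and 45.4 kb away and its nearest WT summit 834854 bp off. Ets2, Sik1, Cd69, Wsb1, Apba2 and E2f6 had 4 each. The highest of Sik1, a salt-inducible kinase gene, scored 40.6 at 37.2 kb.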

How the data were processed

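The authors' sources name BWA and MACS2, without versions, and build mm10, per the submitters' processing notes. For the control library, the calling threshold and the pooling of libraries, details were not stated in the sources used here. Each deposited list holds 1 bp summits with a −log10 p or q value; which of the 2 is not stated. A summit's position is the third column, 1-based. Gene positions, strands and sequences came from RefSeq tables of GRCm38.p6 (21887 protein-coding genes on the chromosomes used). No genome sequence was given, so the planned p53 motif test of all sites was not run.

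Distances are to either end of a gene. Intergenic sequence was counted by base, with assembly gaps included. The 5 comparisons used 2-sided Fisher's exact tests with Benjamini-Hochberg adjustment at 0.05 and Woolf intervals (Python 3.11.15, scipy 1.17.1). Of 495 names in 19 lists, 491 were found. The members and lists were chosen with earlier results of these data known. Named genes are those nearest to the 20 highest scored members, up to 40 list genes by score, the 10 genes with the most members, and those at thresholds; other genes of a list were named after their values were seen. Steps were tested on simulated data. Some genes of the lists are counted but not reported here by name. Motif, lncRNA, microRNA and tRNA descriptions were added after the data were seen.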

Additional observations from a re-analysis of the deposited data

How the results depend on the processing

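Of 40 test values under alternatives, 33 kept their direction and side of the threshold. The odds ratio of distance against shared sites was on the other side of 1 with a WT summit within 1000 bp (0.969), with 5 kb (0.978) and with 20 kb (0.782) as the dividing distance. Against WT-only sites it was so with 5 kb (0.943) and with genes of every biotype (0.805), and that of company within 50 kb was 1.1997. All 6 had adjusted p-values of at least 0.244. Company against shared sites passed the threshold with a WT summit within 1000 bp (0.678, Fisher's exact adjusted p = 0.0333), a setting whose own effect on company was not tested. Summits at or above the median score left 644 members and 570 nearest genes. Other alternatives gave 1024 to 1344 members. Of 114 list counts, 93 stayed within 1.5 times. With genes of every biotype the comparison with non-coding genes could not be run. No paired analysis was possible because each genotype has 1 combined list with no values per library, and leaving out a replicate was not possible for the same reason. The p53 motif alternatives were not run. Depth is unknown, so a site absent from WT may lie below what the WT list could call.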

Other observations

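Transfer RNA genes, which RNA polymerase III transcribes, were within 1 kb of 11 members (0.842%), counted after the data were seen. The share was 2 of 236 shared sites, 0 of 247 WT-only sites, 5 of 1030 3KR-only sites at gene ends, 1 of 753 far from genes and 1 of 2739 in gene bodies. Of the 11 summits, 9 lay within 200 bp of the tRNA gene, and the median distance of the 11 was 54 bp. The highest scored was at 107012776 on chromosome 11, 90 bp from the arginine tRNA gene n-TRccg1, with a score of 41.6 and rank 284 of 6753. Pairs of members lay at the histidine tRNA genes n-THgtg3 and n-THgtg4 on chromosome 2 and at the tyrosine tRNA genes n-TYgta1 and n-TYgta2 on chromosome 3. Of 408 tRNA genes in the table, 28 had a 3KR summit within 1 kb and 9 had a WT summit. The lists behind these counts held 6685 3KR and 1636 WT summits on chromosomes 1 to 19, X and Y, so the 2 counts are not on 1 scale.

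Members were unevenly spread over chromosomes. Chromosome 11 had 3.74 members per Mb of intergenic sequence in the band and chromosome 12 had 3.29, while chromosome 14 had 1.48. X held 10 members, or 0.220 per Mb, and Y held 2. Shared sites numbered 6 on X and 6 on Y, of 236.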
